A study of Homo sapiens with 8 samples.

Results

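The genes described here encode the enzymes and carriers of purine, pyrimidine, deoxynucleotide and folate synthesis. They were chosen by name, 36 in all, and 34 of them had a probe set that the platform annotation gives to that gene alone, out of 18132 genes measured on the arrays. ADSS2 and NME2 had no such probe set and enter no count below. The 34 genes comprise 13 of purine synthesis and salvage, 6 of pyrimidine synthesis, 8 that make or salvage deoxynucleotides, and 7 that carry folate or its carbon units. Where a gene had several probe sets, the brightest over the 8 arrays stood for it.

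Messenger RNA came from AGS, an established human gastric adenocarcinoma cell line, grown in medium with serum. The control group held 4 arrays, and the other group held 4 arrays of AGS cells treated with podofilox at 3.4 nM for 72 hours. Podofilox, or podophyllotoxin, binds tubulin and hinders the assembly of microtubules. The labels state neither whether control cells received solvent nor whether replicates were separate cultures, so the p-values reflect only array-to-array spread within a group, possibly technical.

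Cells build purines stepwise on a ribose phosphate until the ring is closed as inosine monophosphate, which then branches to AMP and GMP. Pyrimidines are made as a free ring, orotate, that is joined to ribose phosphate and becomes UMP, the parent of UTP and CTP. Ribonucleotide reductase and the thymidylate enzymes turn part of these pools into the building blocks of DNA. Folate carries the single carbons needed for the purine ring and for thymidylate, and the carbons move between a mitochondrial and a cytosolic arm. Dividing tumour cells lean on all of these routes, and several enzymes are targets of chemotherapy.

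Levels are log2 values as deposited, and each difference is the podofilox mean less the control mean. The words rose and fell are kept for genes whose limma p, adjusted by Benjamini-Hochberg over all 18132 genes, was under 0.05. Differences are given with limma's moderated standard error (SE), levels as mean ± SD with n = 4 arrays a group, and intervals cover 95%. For the gene pairs the SE is an ordinary one, from the pooled SD of the per-array differences between the paired genes. Genes were not ranked by level, since probes differ in how strongly they bind.

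Control means of the 34 genes ran from 7.30 to 12.04. The epithelial markers EPCAM, KRT8, KRT18, KRT19 and CLDN4 lay between 12.34 and 13.28 in control cells, and 1 of these 5, CLDN4, rose, by 0.50 (SE 0.04, adjusted p = 3.36e-05). Their summed linear signal ran from 40315.7 to 41989.2 on control arrays and from 43561.7 to 45395.1 on podofilox arrays, without overlap. Of the 6 gastric markers 2 rose, TFF1 from 7.93 to 9.01 (1.08, SE 0.07, adjusted p = 1.87e-05) and ANXA10 from 5.91 to 6.39 (0.49, SE 0.09, adjusted p = 0.00449). GKN1 (4.05), CLDN18 (4.93), MUC6 (5.06) and TFF2 (5.29, control means) were not called. The gastric sum ran from 401.8 to 447.3 on control arrays and from 661.7 to 775.0 on podofilox arrays, again without overlap. Fibroblast markers had control means from 3.15 for LUM to 6.02 for COL1A1, and 0 of 6 were called by limma, with 1 higher and 1 lower at an unadjusted p under 0.05. Their summed linear signal ran from 176.4 to 197.1 on control arrays and from 178.1 to 194.4 on podofilox arrays. The 4 immune markers summed to between 206.0 and 247.2 on control arrays and between 258.5 and 275.7 on podofilox arrays, with CD68 called higher and PTPRC at 3.62 in control cells. For the 4 endothelial markers the sum ran from 259.6 to 350.5 and from 282.8 to 322.0, with CDH5 called lower. Control probe sets for 18S ribosomal RNA averaged 12.59 to 12.92 on control arrays and 12.01 to 12.42 on podofilox arrays, so the groups did not overlap. Control probe sets for poly-A spike-ins averaged 6.44 to 6.50 on control arrays and 6.50 to 6.71 on podofilox arrays. Those for hybridisation averaged 10.97 to 11.04 and 10.95 to 11.04. The part of these marker, 18S and spike-in differences in the results was not tested.

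Podofilox-treated cells had less mRNA for 14 of the 34 genes, among them 5 of the 6 pyrimidine genes. In 2 genes, the mitochondrial folate enzymes MTHFD1L and MTHFD2, the mRNA rose, and 18 were not called. Over all genes, 21% were called, with 12.5% falling and 8.55% rising. Among the 13528 genes with a mean of at least 5, 16.3% fell and 10.2% rose. That range holds every member but also dimmer genes, since the members' control means begin at 7.30. The share among genes as bright as the members was not computed. The median difference of the 34 genes was -0.12, against 0.0069 over all genes, and 28 of the 34 differences were below 0. In 18 of the 34 genes every podofilox array lay below every control array, which was so for 15.6% of all genes, and in 2 every podofilox array lay above, as in 10.6% of all genes. The changes were small, and the largest was 1.50-fold.

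**Figure D1:**
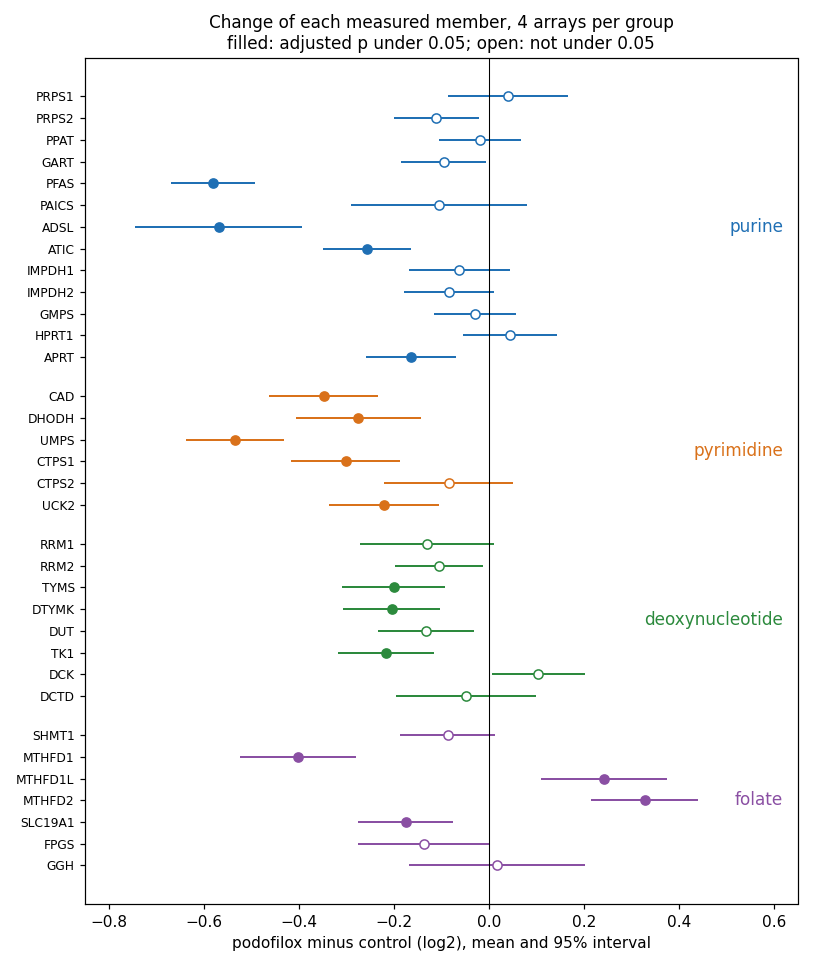
Difference of each of the 34 measured genes, podofilox minus control on the log2 scale, with its 95% interval (4 arrays a group). Filled points passed the test. The 14 falls reach -0.58 (PFAS), all pyrimidine genes except CTPS2 fell, and the 2 filled points right of 0 are MTHFD1L and MTHFD2.

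**Figure D2:**
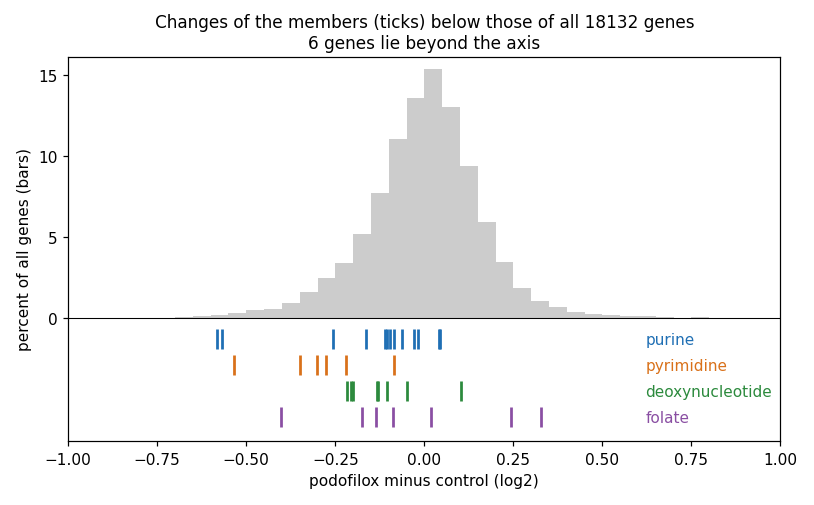
Bars give the percent of all 18132 genes in each interval of the difference, podofilox minus control on the log2 scale, with 6 genes beyond the axis. Ticks under the bars are the 34 genes by route, most of them left of 0, with the median of the pyrimidine genes furthest left at -0.29.

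By route, of the 13 purine genes 4 fell and 0 rose (median -0.10), of the 6 pyrimidine genes 5 fell and 0 rose (median -0.29), of the 8 deoxynucleotide genes 3 fell and 0 rose (median -0.13), and of the 7 folate genes 2 fell and 2 rose (median -0.09). At an unadjusted p under 0.05 by limma, 6 purine genes were lower and 0 higher, and 5 pyrimidine genes were lower and 0 higher. Of the deoxynucleotide genes 5 were lower and 1, DCK, higher, and of the folate genes 2 were lower and 2 higher. Over all 18132 genes, 3329 were lower and 2717 higher at that threshold. These lists are small, and no test compared one route with another.

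In the purine route the enzymes of the ring that fell were PFAS, ADSL and ATIC. PFAS, the synthase that adds nitrogen from glutamine to the growing ring, was at 9.05, 9.12, 9.06 and 9.04 on control arrays 1 to 4 and at 8.50, 8.49, 8.46 and 8.50 on podofilox arrays 1 to 4. The arrays of a group lay close together and the groups far apart. PFAS fell 1.50-fold, by 0.58 (SE 0.04, adjusted p = 2.02e-05), the largest change of any member. This value comes from an _x_at probe set, a kind that may cross-hybridise with other mRNAs. The 3 other PFAS probe sets, all dimmer, differed by -0.07, -0.14 and -0.11 and were not called.

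ADSL, adenylosuccinate lyase, acts once on the ring and again where AMP is made from inosine monophosphate. Its control values were 9.37, 9.51, 9.61 and 9.57, and its podofilox values were 9.05, 9.08, 8.78 and 8.88. Podofilox arrays 3 and 4 were the lowest, and no podofilox array reached the lowest control array. ADSL fell by 0.57 (SE 0.08, adjusted p = 0.000807), and the difference was -0.37 between arrays numbered 1 and 2 and -0.76 between those numbered 3 and 4. Its other probe set was near the floor of the arrays, at 3.35, and was not called (0.13), so that the mean over its probe sets was no longer called (-0.22, adjusted p = 0.0526).

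ATIC closes the ring with a carbon from formyl folate. It was at 11.03, 11.12, 11.05 and 11.03 in control cells and 10.77, 10.81, 10.85 and 10.78 with podofilox. All podofilox arrays were lower, with a fall of 0.26 (SE 0.04, adjusted p = 0.00197) on the only probe set of the gene.

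The other enzymes of the ring did not pass the test. PPAT, the amidotransferase that commits ribose phosphate to purines, differed by -0.02 (SE 0.04, interval -0.11 to 0.07), and PAICS, which joins further atoms to the ring, by -0.11 (SE 0.08, interval -0.29 to 0.08). Podofilox array 3 gave the highest PAICS value of all 8 arrays, 10.81, and podofilox array 1 the lowest, 10.41. GART, which uses formyl folate early in the route, was lower on every podofilox array than on any control array on its brightest probe set. Its difference of -0.10 (SE 0.04, adjusted p = 0.126) missed the threshold. The 4 other GART probe sets differed by -0.0002, -0.05, 0.15 and -0.05 and were not called. With the mean of its probe sets the difference was -0.008 (adjusted p = 0.914).

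PRPS1 and PRPS2 both make the activated ribose phosphate that all nucleotide routes draw on. On control arrays PRPS1 was at 8.70, 8.76, 8.77 and 8.79, and on podofilox arrays at 8.92, 8.85, 8.70 and 8.71. PRPS2 was at 10.23, 10.26, 10.28 and 10.22 and then at 10.15, 10.12, 10.18 and 10.09. PRPS1 was high on podofilox arrays 1 and 2 only, while PRPS2 was a little lower on all of them. Neither passed the test, with differences of 0.04 (SE 0.06) and -0.11 (SE 0.04, adjusted p = 0.0804).

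Beyond the ring, the enzymes of the GMP branch did not pass the test either. IMPDH2, the main form of the dehydrogenase that begins this branch in dividing cells, was at 12.05, 12.09, 11.97 and 12.04 in control cells and 11.96, 11.99, 11.92 and 11.94 with podofilox (difference -0.08, SE 0.04, interval -0.18 to 0.01). IMPDH1 was at 10.29, 10.40, 10.24 and 10.29 and at 10.24, 10.24, 10.19 and 10.30 (difference -0.06, SE 0.05). In both genes the groups overlapped, and all 10 of their probe sets had differences between -0.13 and -0.05. GMPS, which completes GMP, differed by -0.03 (SE 0.04).

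Of the salvage enzymes, APRT, which recovers adenine, fell and HPRT1, which recovers hypoxanthine and guanine, was not called. APRT values were 10.83, 10.86, 10.84 and 10.88 in control cells and 10.73, 10.72, 10.61 and 10.70 with podofilox. The groups were separate, with a fall of 0.16 (SE 0.04, adjusted p = 0.0212) that was lost without control replicate 4 (adjusted p = 0.0716). HPRT1 differed by 0.04 (SE 0.04).

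In the pyrimidine route every measured enzyme up to UMP fell. CAD, the large protein that carries out the opening steps to dihydroorotate, was at 9.30, 9.36, 9.23 and 9.29 in control cells and 8.89, 8.93, 8.91 and 9.06 with podofilox. The podofilox arrays all lay lower, array 4 the least so, and CAD fell by 0.35 (SE 0.05, adjusted p = 0.00113).

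DHODH, the mitochondrial enzyme that oxidises dihydroorotate to orotate, was at 7.35, 7.19, 7.34 and 7.33 in control cells and 7.13, 7.05, 6.89 and 7.04 with podofilox. Control array 2 was low for its group but still above every podofilox array. The fall was 0.27 (SE 0.06, adjusted p = 0.00871), and the difference was -0.18 between arrays numbered 1 and 2 and -0.37 between those numbered 3 and 4.

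UMPS, which turns orotate into UMP, had the largest fall of the route. It was at 9.52, 9.64, 9.62 and 9.62 in control cells and at 9.14, 9.06, 9.03 and 9.03 with podofilox. The groups were well apart, and UMPS fell 1.45-fold, by 0.53 (SE 0.05, adjusted p = 7.42e-05). A further probe set fell by 0.41 (SE 0.05), whereas a probe set at 5.44 was not called (0.08).

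CTPS1 and CTPS2 both convert UTP to CTP. CTPS1 was at 9.64, 9.73, 9.72 and 9.67 on control arrays and 9.47, 9.45, 9.30 and 9.34 on podofilox arrays, and CTPS2 at 7.89, 7.98, 7.79 and 7.84 and at 7.83, 7.91, 7.75 and 7.68. CTPS1 was lower on every podofilox array, while the groups of CTPS2 overlapped. CTPS1 fell by 0.30 (SE 0.05, adjusted p = 0.00259), and all 4 of its probe sets fell, by 0.25 to 0.33. CTPS2 differed by -0.08 (SE 0.06, interval -0.22 to 0.05) and was not called.

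UCK2, the kinase that salvages uridine and cytidine, averaged 10.13 ± 0.04 on control arrays and 9.91 ± 0.09 on podofilox arrays (SD, n = 4 a group). It fell by 0.22 (SE 0.05, adjusted p = 0.0137), and the difference was -0.14 between arrays numbered 1 and 2 and -0.30 between those numbered 3 and 4.

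**Figure D3:**
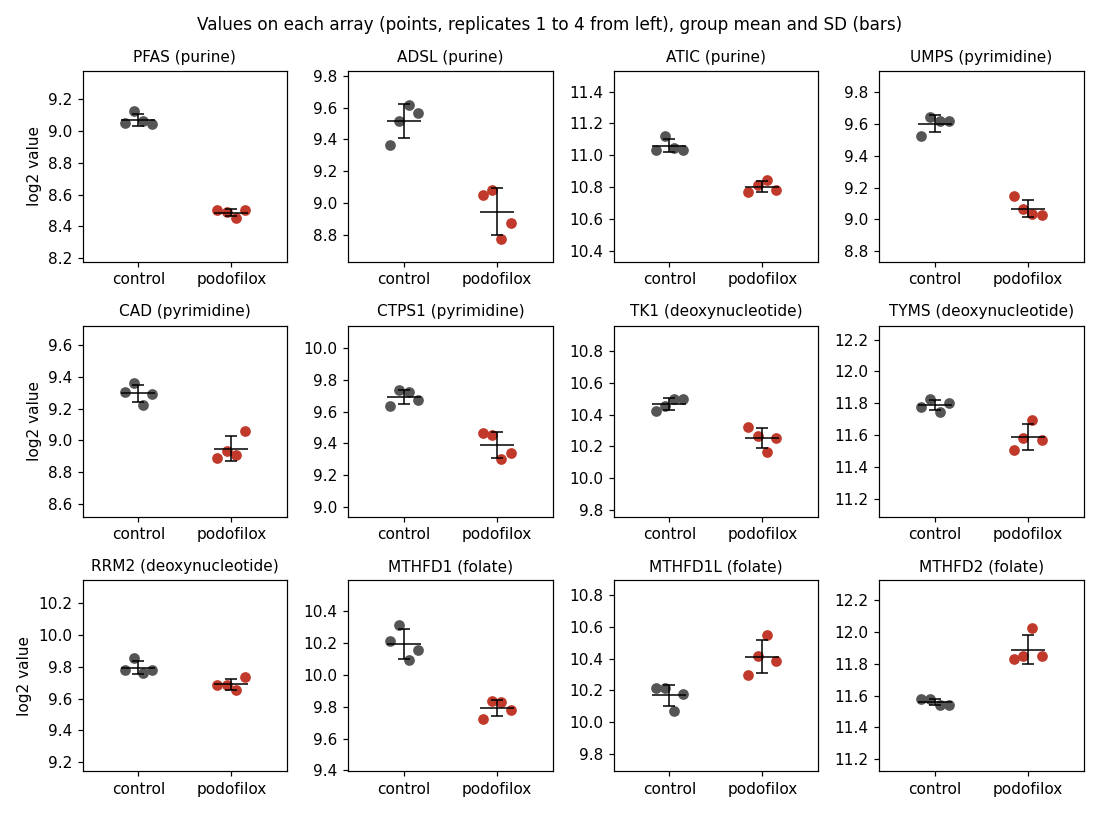
Log2 values on each of the 8 arrays for 12 genes, with group mean and SD (n = 4). Every panel spans the same log2 range, so the distance between groups can be compared. The groups are separate in all 12 panels, with MTHFD1L and MTHFD2 the only genes higher with podofilox, and RRM2 was not called.

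The 3 deoxynucleotide genes that fell all act on thymidine or thymidylate. TK1, the thymidine kinase of S phase, was at 10.42, 10.45, 10.50 and 10.50 in control cells and 10.32, 10.26, 10.17 and 10.25 with podofilox. TYMS, which methylates dUMP with a folate carbon, was at 11.78, 11.82, 11.75 and 11.80 and at 11.51, 11.58, 11.70 and 11.57. DTYMK, the kinase that acts next on thymidylate, was at 9.25, 9.28, 9.19 and 9.24 and at 9.00, 9.09, 8.96 and 9.08. In each of these genes all podofilox arrays were lower than all control arrays, although podofilox array 3 came close to the controls for TYMS.

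TK1 fell by 0.22 (SE 0.05, adjusted p = 0.00777), DTYMK by 0.20 (SE 0.05, adjusted p = 0.0105) and TYMS by 0.20 (SE 0.05, adjusted p = 0.0162). The TYMS call was lost without control replicate 4 (adjusted p = 0.0508) and with each array centred on its median (adjusted p = 0.0516). Both probe sets of TK1 and both of TYMS fell.

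DUT, which clears dUTP and so supplies dUMP, was at 10.00, 10.02, 10.01 and 10.02 in control cells and 9.96, 9.92, 9.82 and 9.82 with podofilox. The groups did not overlap, but the difference of -0.13 (SE 0.05, adjusted p = 0.064) missed the threshold. The call was made without podofilox replicate 1 (adjusted p = 0.0365). DCTD, which deaminates dCMP to dUMP, differed by -0.05 (SE 0.07) and was not called. Both genes depended on the probe set. Of the 3 other DUT probe sets 1 fell, by 0.30 (adjusted p = 0.0183 over all probe sets). Of the 4 other DCTD probe sets 1 fell, by 0.18 (adjusted p = 0.0283). The remaining ones were not called.

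Ribonucleotide reductase makes the deoxy forms, with RRM1 as its large and RRM2 as its small subunit. RRM1 was at 10.12, 10.18, 10.01 and 10.16 in control cells and 9.88, 9.97, 10.14 and 9.95 with podofilox, and RRM2 at 9.78, 9.86, 9.76 and 9.78 and at 9.68, 9.69, 9.65 and 9.74. RRM1 overlapped because of podofilox array 3, while RRM2 did not overlap. Their differences of -0.13 (SE 0.06, adjusted p = 0.18) and -0.10 (SE 0.04, adjusted p = 0.107) were not called. RRM2 depended on the probe set, since its other one, at 8.95, fell by 0.36 (adjusted p = 0.00223 over all probe sets), and the mean of both fell by 0.23 (adjusted p = 0.00288). For RRM1 a call was made without podofilox replicate 3 (adjusted p = 0.0443).

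DCK, which salvages deoxycytidine, was at 9.38, 9.29, 9.27 and 9.26 in control cells and 9.35, 9.41, 9.44 and 9.42 with podofilox. Control array 1 lay among the podofilox arrays, and the difference was 0.10 (SE 0.04, adjusted p = 0.127), so DCK was not called. This value comes from an _s_at probe set. The other 4 DCK probe sets differed by -0.01, -0.003, 0.10 and 0.05, and without _x_at and _s_at probe sets the sign turned (-0.01).

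Of the folate genes, the 3 MTHFD members changed in opposite directions. MTHFD1, which passes carbons between folate forms in the cytosol, was at 10.22, 10.31, 10.09 and 10.16 in control cells and 9.72, 9.84, 9.83 and 9.78 with podofilox. MTHFD2, the mitochondrial dehydrogenase and cyclohydrolase, was at 11.58, 11.58, 11.54 and 11.54 and at 11.83, 11.85, 12.02 and 11.85. MTHFD1L, which releases formate in mitochondria for use in the cytosol, was at 10.21, 10.21, 10.07 and 10.18 and at 10.29, 10.42, 10.55 and 10.39. The podofilox arrays lay below the controls for MTHFD1 and above them for MTHFD2 and MTHFD1L, with podofilox array 3 the highest in both of the latter.

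MTHFD1 fell by 0.40 (SE 0.05, adjusted p = 0.000735), on its only probe set. MTHFD2 rose by 0.33 (SE 0.05, adjusted p = 0.00151), and all 5 of its probe sets rose, by 0.25 to 0.33. MTHFD1L rose by 0.24 (SE 0.06, adjusted p = 0.0171), and the difference was 0.14 between arrays numbered 1 and 2 and 0.34 between those numbered 3 and 4. Of its 4 probe sets 2 rose, and the others differed by 0.11 and 0.13. Its brightest probe set is of the _s_at kind, and the call was lost without such probe sets (0.13, adjusted p = 0.0875).

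The start regions of these genes are shown because they were called in opposite directions. ATIC, a purine gene that fell, was added by choice and not by a rule. Promoter sequence was taken from RefSeq (build GRCh38.p14), with a window from 250 bases before to 50 after each start, for 31 of the 34 genes. It was searched on both strands for the E-box CACGTG, the site that MYC and its relatives bind, for the E2F letters TTTGGCGC and TTTCGCGC, and for TGATGNAA, the core of the element that ATF4 binds with C/EBP partners. Below are 160 bases before 1 start of each gene, 5′ to 3′, with the matches in capitals. Where a gene had several windows, as MTHFD1L with 4, the one with the most matches before its start was taken. The stretches lie on the plus strand at chr6:150866326-150866485 (MTHFD1L, where other listed starts lie inside the stretch), chr2:74198455-74198614 (MTHFD2), chr14:64388193-64388352 (MTHFD1) and chr2:215311899-215312058 (ATIC).
MTHFD1L: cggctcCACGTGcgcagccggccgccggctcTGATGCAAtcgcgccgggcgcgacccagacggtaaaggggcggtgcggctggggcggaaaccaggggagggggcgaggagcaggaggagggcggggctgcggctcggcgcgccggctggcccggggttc
MTHFD2: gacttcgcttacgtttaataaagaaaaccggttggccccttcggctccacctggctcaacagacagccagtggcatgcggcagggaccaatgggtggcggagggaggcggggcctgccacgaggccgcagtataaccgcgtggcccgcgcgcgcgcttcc
MTHFD1: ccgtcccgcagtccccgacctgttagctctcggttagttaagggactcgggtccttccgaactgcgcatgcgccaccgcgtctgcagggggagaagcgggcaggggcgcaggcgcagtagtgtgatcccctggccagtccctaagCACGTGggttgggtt
ATIC: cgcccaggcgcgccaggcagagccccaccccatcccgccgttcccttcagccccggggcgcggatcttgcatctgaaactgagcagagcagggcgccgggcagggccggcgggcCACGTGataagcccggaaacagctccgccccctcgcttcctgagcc

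In the MTHFD1L stretch the capitals mark an E-box and, further on, TGATGCAA, a match to TGATGNAA. Counted from another listed start of MTHFD1L, the E-box begins at base -1 and TGATGCAA at base 25, after that start. The MTHFD2 stretch held no match to these letters, which says only that they are not in this window. MTHFD1 and ATIC, which fell, each had an E-box in capitals. They do not stand for the other genes that fell, since only 4 of the 14, not all of which had a window, held an E-box.

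Over all members, 9 of the 31 with a window held an E-box, against 8.78% of all 27305 genes with a window. The 31 members had 51 windows and the 27305 genes had 35116, and a gene with more windows has more room for a match. They were ATIC, DHODH, MTHFD1 and SLC19A1, which fell, MTHFD1L, which rose, and DCK, FPGS, PAICS and PPAT, which were not called. TTTGGCGC stood in 3 (DCK, DUT and GART, 0.795% of all genes), TTTCGCGC in 0 (0.63% of all genes) and TGATGNAA in 2 (DCTD and MTHFD1L, 4.46% of all genes). PPAT and PAICS share a start region on opposite strands, so their E-box is the same site. A match is a description of letters and shows no binding.

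Of the other 4 folate genes 1 fell. SLC19A1, the reduced folate carrier, was at 8.38, 8.26, 8.28 and 8.36 in control cells and 8.14, 8.14, 8.11 and 8.19 with podofilox. The groups were separate but close, and the fall was 0.18 (SE 0.04, adjusted p = 0.0196). This call was lost without control replicate 1, control replicate 4 or podofilox replicate 2 (adjusted p = 0.0578, 0.069 and 0.0505). FPGS, which traps folates in the cell by adding glutamates, differed by -0.14 (SE 0.06), and GGH, which removes them, by 0.02 (SE 0.08). SHMT1, which takes the carbon from serine in the cytosol, differed by -0.09 (SE 0.04), and none of these genes was called. Of the 3 other FPGS probe sets 1 fell, by 0.20 (adjusted p = 0.0225 over all probe sets). Of the 4 other SHMT1 probe sets 1 fell, by 0.20 (adjusted p = 0.0205). The remaining ones were not called, and 1 of SHMT1 was higher (0.13).

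**Figure D4:**
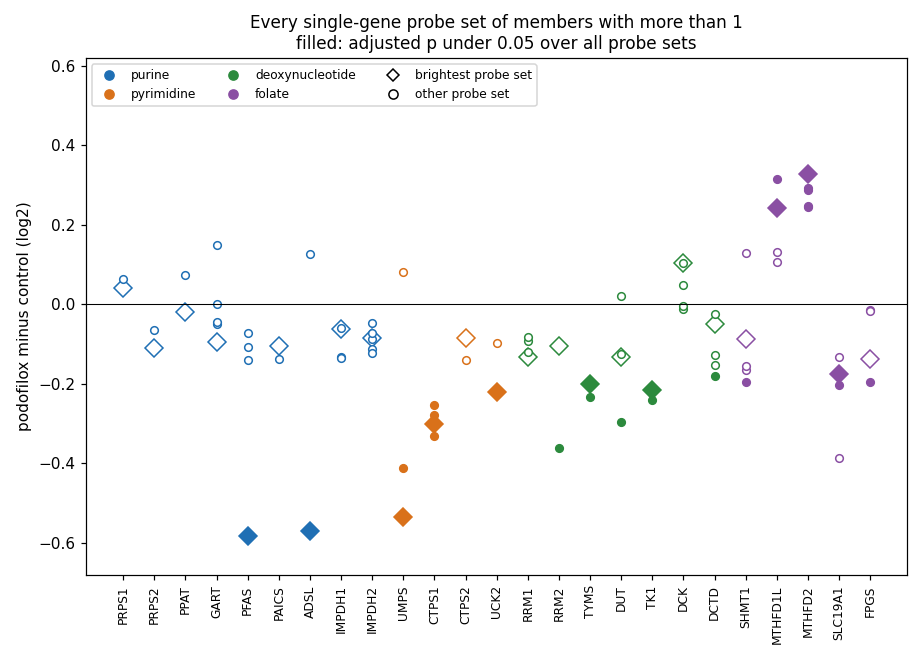
Difference, podofilox minus control on the log2 scale, of every probe set of the 25 genes that had more than 1. Diamonds are the brightest probe set of a gene and circles the others, and filled symbols passed the test over all probe sets. CTPS1, TYMS, TK1 and MTHFD2 had all symbols filled, whereas PFAS and ADSL had a single filled symbol.

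The 34 genes had 95 probe sets in all, of which 26 (27.4%) fell and 7 rose. Among all 44988 single-gene probe sets 4590 (10.2%) fell and 3522 rose. In 3 genes with more than 1 probe set every probe set fell, namely CTPS1, TYMS and TK1. Probe sets of a gene share its RNA and are no replicates.

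Genes that carry out the same or a parallel reaction were compared for how much they changed, in 7 pairs, with an exact two-sided permutation test over the 70 arrangements of the arrays. The change of MTHFD1 differed from that of MTHFD2 by -0.73 (SE 0.05) and from that of MTHFD1L by -0.64 (SE 0.04). TK1 differed from DCK by -0.32 (SE 0.07) and CTPS1 from CTPS2 by -0.22 (SE 0.05). With _x_at and _s_at probe sets set aside, TK1 and DCK differed by -0.20 (SE 0.11, adjusted p = 0.2). On the brightest probe sets of all kinds, the groups of these 4 pairs did not overlap and the exact p was 0.0286, the smallest that 70 arrangements can give. Adjusted over the 7 pairs it was 0.05, which is at the threshold and not under it. MTHFD1 stands in 2 of these 4 pairs, so they are not independent, and the adjusted value depends on how many pairs reach the smallest p.

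The other pairs gave smaller values. PRPS1 and PRPS2 differed in their change by 0.15 (SE 0.06, exact p = 0.0571, adjusted p = 0.08), IMPDH1 and IMPDH2 by 0.02 (SE 0.03, exact p = 0.571), and RRM1 and RRM2 by -0.03 (SE 0.07, exact p = 0.743). With the mean of the probe sets of each gene the sign of the RRM1 and RRM2 pair turned (0.13, adjusted p = 0.04).

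Further genes of the same routes moved both ways. Of 28 measured genes on a list of other carriers, kinases and breakdown enzymes, 9 fell (32.1%) and 5 rose (17.9%), with a median of 0.02, where 12.5% of all genes fell and 8.55% rose. The counts by route that follow are of few genes and are to be read beside the same 12.5% and 8.55%. Of 7 purine genes 2 fell and 2 rose. PNP, which splits purine nucleosides, rose by 0.29 (SE 0.05, adjusted p = 0.00148), while ADK, the adenosine kinase, and PRPSAP2, a partner of the ribose phosphate synthetases, fell by 0.19 (SE 0.04) and 0.18 (SE 0.04).

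Of 6 pyrimidine genes 0 fell and 2 rose by limma. At an unadjusted p under 0.05, 0 were lower and 2 higher, where 3329 of all 18132 genes were lower and 2717 higher. The 2 that rose break down or salvage nucleosides, CDA, cytidine deaminase, by 0.28 (SE 0.05, adjusted p = 0.00458) and UPP1, uridine phosphorylase, by 0.20 (SE 0.06, adjusted p = 0.0446). In the deoxynucleotide list 3 of 7 fell and 1 rose. The one that rose was RRM2B, the small reductase subunit induced by p53, from 9.66 to 10.03 (0.37, SE 0.05, adjusted p = 0.0007), while DCTPP1, which clears surplus dCTP, fell by 0.16 (SE 0.04) and the nucleoside carrier SLC29A1 by 0.21 (SE 0.06).

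Of 8 further folate genes 4 fell and 0 rose. SHMT2, which takes carbon from serine in mitochondria, fell by 0.19 (SE 0.04, adjusted p = 0.00918), unlike MTHFD2 and MTHFD1L of the same compartment. MTR, methionine synthase, fell by 0.21 (SE 0.05) and SLC46A1, the proton-coupled folate carrier, by 0.20 (SE 0.05). Further mitochondrial members of the list, named after their values were seen, were SLC25A32, the mitochondrial folate carrier, which fell by 0.14 (SE 0.04, adjusted p = 0.03), and MTHFD2L (0.02) and ALDH1L2 (-0.02), which were not called. A test of the difference between SHMT2 and the MTHFD genes was not run.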

How the data were processed

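The authors deposited log2 values for each probe set on each array, computed by RMA (background correction, quantile normalization and summary of probes) per the submitters' processing notes, which name no version. The table has no detection calls. Of 49395 probe sets, 44988 had 1 gene in the platform annotation, 1832 several and 2473 none here, and 102 were controls. The Entrez identifiers of 44961 were found in RefSeq (GRCh38.p14).

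Control and podofilox arrays, 4 of each, entered 1 limma fit over 18132 genes without filter or covariate (version 3.58.1, R 4.3.3). The members and lists were chosen with earlier results of these data known. Every member is given, with values by array for the 4 largest changes of a route, for genes that rose and for the paired genes; of the other pathway genes up to 3 per route with the smallest p are named. Arrays 1 and 2 were read apart from 3 and 4 since their 18S values differ, though in opposite directions by group. Controls 1 and 2 were the higher ones (12.86, 12.92) and controls 3 and 4 the lower (12.59, 12.59). With podofilox, replicates 1 and 2 were the lower ones (12.01, 12.06) and 3 and 4 the higher (12.42, 12.41). The 18S gap between groups was thus wider within arrays 1 and 2. Poly-A spike-ins were higher on podofilox replicates 1 and 2 (6.71, 6.67) than on 3 and 4 (6.50, 6.56), while controls lay between 6.44 and 6.50. The part of the 18S and spike-in values in the split differences was not tested. The fit was tested on simulated data, with 100 genes changed by 0.3 and 100 by 0.6. It recovered 54% of the former and 91% of the latter, and 8.81% of its calls were false. More genes were called in the real data, so these shares need not hold there. A gene that was not called may still have changed. Correlations of deviations were -0.24 to 0.09 for arrays of the same replicate number and -0.15 to 0.24 for the others. The labels do not say whether the numbers pair the arrays, and so few values cannot settle it. Alternatives were another normalization or centring, a filter, variance models, blocks, other probe sets and each array left out. The number of arrays limits the precision. Figures used matplotlib 3.10.9 in Python 3.11.15.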

Additional observations from a re-analysis of the deposited data

Results flagged for a closer look

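In 4 of 68 groups of 4 arrays (34 genes in each group) a single array lay far from the others by Dixon's criterion, where chance alone marks about 1 in 20. HPRT1 was marked in both groups, at 10.34 on control array 4 (the nearest other control array was at 10.42) and at 10.53 on podofilox array 3 (nearest 10.42), and it was not called. DHODH was at 7.19 on control array 2 (nearest 7.33), below its group. MTHFD2 was at 12.02 on podofilox array 3 (nearest 11.85), above its group, and without that array its difference was 0.28.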

How the results depend on the processing

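Leaving out each array in turn gave 11 to 15 falling members (lowest without control replicate 4) and 2 rising ones throughout. Over all 18132 genes 9.08% to 11.8% fell and 1059 to 1573 genes rose. The median ran from -0.12 to -0.11, with 3 to 4 purine, 5 pyrimidine (each time), 2 to 4 deoxynucleotide and 1 to 2 folate falls. Within arrays 1 and 2 alone, 5 members fell and 0 rose (2 purine, 2 pyrimidine, 0 deoxynucleotide and 1 folate). There 2.99% of all genes fell and 468 of 18132 rose. Within arrays 3 and 4 alone 8 fell and 2 rose (falls: 2 purine, 4 pyrimidine, 1 deoxynucleotide and 1 folate). There 7.69% of all genes fell and 905 of 18132 rose. These fits use fewer arrays, and the 18S gap between groups was wider within arrays 1 and 2 than within 3 and 4. With quantile normalization once more the median was -0.099 and 1 folate gene fell, where 11.6% of all genes fell. With median centring the median was -0.10. With array weights 18 members fell and 3 rose, where 15.8% of all genes fell and 2406 genes rose, and DCK was called higher (0.12, adjusted p = 0.037). With the mean of probe sets 15 members fell and 2 rose, where 12.4% of all genes fell and 1755 of 18132 rose. Either setting gave 5 deoxynucleotide falls. The replicate block gave 10 falls, 1 rise and 1 folate fall, and over all genes 1625 falls and 1116 rises against 2260 and 1550. In that fit APRT, UCK2, TYMS, SLC19A1 and MTHFD1L lost their calls. Whether the numbers pair the arrays is not known. Without _x_at and _s_at probe sets 12 members fell and 1 rose, where 11.4% of the 16701 genes left fell and 1330 rose. PFAS lost its call there (-0.07, adjusted p = 0.486). The cause of these shifts was otherwise not tested.

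For the pairs, PRPS1 and PRPS2 differed by 0.26 within arrays 1 and 2 and 0.042 within arrays 3 and 4, and TK1 and DCK by -0.19 and -0.45. With the mean of probe sets the adjusted permutation p was 0.04 for PRPS1 and PRPS2 (0.14), MTHFD1 and MTHFD1L (-0.60), MTHFD1 and MTHFD2 (-0.68) and TK1 and DCK (-0.28). RRM1 and RRM2 turned to 0.13, also at 0.04, and CTPS1 and CTPS2 were at -0.18 (adjusted p = 0.0667). No exact p can go below 0.0286, so the adjusted p of pairs at that floor depends on how many pairs reach it. The MTHFD1 pairs and the TK1 and DCK pair had smaller differences here than on the brightest probe sets (-0.64, -0.73 and -0.32). TK1 and DCK differed by -0.20 (adjusted p = 0.2) once _x_at and _s_at probe sets were set aside. The direction of each called member was kept under all alternatives run for it.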

Other observations

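A few genes of these routes were read only by probe sets shared with a neighbouring readthrough gene, and entered no count above. Over all 49293 probe sets without controls, the NME1 probe set, for a kinase that makes nucleoside triphosphates, fell from 11.24 ± 0.04 to 10.98 ± 0.04 (SD, n = 4 each; difference -0.26, SE 0.04, adjusted p = 0.00304). The NME2 probe set, for a related kinase, was at 12.73 ± 0.03 and 12.64 ± 0.05 (SD, n = 4 each) and was not called (-0.09, adjusted p = 0.187). MTHFS, which returns formyl folate to the active pool, fell from 8.76 ± 0.08 to 8.39 ± 0.09 (SD, n = 4 each; difference -0.37, SE 0.06, adjusted p = 0.0022). Each of these probe sets can also bind the readthrough transcript.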
